A study of Mus musculus with 6 samples.

Results

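The forkhead (Fox) genes encode transcription factors that share the winged-helix DNA-binding domain. Their levels were read in mouse forelimb buds at embryonic day E10.5. Members were the genes whose single annotated symbol is Fox, a letter from a to s and digits only. Of 18193 genes on the array, 37 were members, and each was represented by its brightest probe set, judged by mean log2 signal on the 6 arrays. Proximal and distal tissue was collected separately under 3 conditions, with 1 array per combination. The dKO buds were Prx1-Cre; Ring1A-/-; Ring1Bfl/fl. The RA buds were from wild type embryos that received all-trans retinoic acid (RA) through the mother by oral gavage, at 100 mg/kg and E10.25. The control buds carried the genotype label Ring1A-/-, although their description calls them wild type, and they received no RA. All animals were CD1. By the genotype labels, the dKO and control buds share the loss of Ring1A and differ in Ring1B and the Cre transgene, whereas RA and control buds differ in both RA exposure and the Ring1A label. Prx1-Cre acts in limb mesenchyme, so that the ectoderm, blood vessels and muscle precursors of a dKO bud are outside its main domain. The number of embryos behind a sample was not stated in these sources.

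RING1A and RING1B are the ubiquitin ligases of Polycomb repressive complex 1, which holds many developmental transcription factor genes silent outside their own tissues. RA is made in the body wall and signals to the proximal limb. Fox genes range from tissue regulators, such as the FOXA factors of endoderm and the FOXC factors of mesoderm, to widely expressed factors, such as FOXO proteins, which insulin signalling keeps out of the nucleus through AKT, and FOXM1, which drives genes of mitosis.

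The promoter letters below belong to members that stand for 3 patterns in the results, among those with an entry in the RefSeq table used. Foxc2, Foxf1 and Foxp2 have none. Foxd1 and Foxl2 were below the array median in control and above it in dKO. Foxc1 and Foxd2 were highest in the proximal RA bud, and Foxi1, below the median on every array, has the fewest CpG dinucleotides of the members of that kind. Each line gives the 250 bases before a RefSeq transcription start, 5′ to 3′, and capitals mark CpG dinucleotides, the sites of DNA methylation that are dense in CpG islands.
Foxd1 (GRCm38.p6, chr13:98353995-98354244, + strand): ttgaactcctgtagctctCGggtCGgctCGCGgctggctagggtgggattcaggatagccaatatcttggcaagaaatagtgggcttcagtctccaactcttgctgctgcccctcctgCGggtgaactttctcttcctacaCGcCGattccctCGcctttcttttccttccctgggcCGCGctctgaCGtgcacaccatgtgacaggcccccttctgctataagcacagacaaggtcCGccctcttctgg
Foxl2 (GRCm38.p6, chr9:98955357-98955606, + strand): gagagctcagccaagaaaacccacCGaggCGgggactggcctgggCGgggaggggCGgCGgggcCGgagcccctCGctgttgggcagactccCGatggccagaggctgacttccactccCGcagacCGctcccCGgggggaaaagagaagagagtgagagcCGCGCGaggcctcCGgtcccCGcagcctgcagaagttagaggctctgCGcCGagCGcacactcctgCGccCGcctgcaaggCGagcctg
Foxc1 (GRCm38.p6, chr13:31806396-31806645, + strand): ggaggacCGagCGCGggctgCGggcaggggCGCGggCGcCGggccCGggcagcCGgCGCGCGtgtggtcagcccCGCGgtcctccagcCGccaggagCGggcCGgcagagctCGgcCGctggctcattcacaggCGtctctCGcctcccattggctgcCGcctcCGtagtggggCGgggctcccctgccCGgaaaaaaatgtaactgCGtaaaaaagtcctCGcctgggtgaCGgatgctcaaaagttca
Foxd2 (GRCm38.p6, chr4:114908899-114909148, - strand): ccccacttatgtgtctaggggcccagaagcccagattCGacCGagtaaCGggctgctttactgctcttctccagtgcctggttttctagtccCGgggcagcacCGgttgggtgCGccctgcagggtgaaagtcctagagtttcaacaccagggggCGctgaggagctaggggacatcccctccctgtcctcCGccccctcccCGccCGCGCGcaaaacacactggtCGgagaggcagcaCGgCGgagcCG
Foxi1 (GRCm38.p6, chr11:34208090-34208339, - strand): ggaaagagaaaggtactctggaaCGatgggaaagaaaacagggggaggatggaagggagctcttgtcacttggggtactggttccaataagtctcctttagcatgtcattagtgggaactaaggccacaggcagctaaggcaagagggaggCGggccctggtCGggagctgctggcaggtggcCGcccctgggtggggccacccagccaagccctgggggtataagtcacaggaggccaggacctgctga
Foxl2 had 22 CpG dinucleotides in this window, Foxd1 12, Foxc1 29, Foxd2 16 and Foxi1 4, and the median over 14452 promoters of genes on the array was 13.

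Values are MAS5 signals on a linear scale. The median of an array, called its floor, was 73.0 in the proximal and 76.1 in the distal dKO array, 63.0 and 68.2 in the RA arrays and 64.0 and 59.5 in the control arrays. Lower signals were set to the floor before differences were taken, and a difference against a floored signal is a bound, written "at least". Each group has 1 array, so a difference between 2 arrays has no replicate check and no p-value. Signals of different probe sets are not comparable as levels of different genes, so each gene is compared only with itself. The arrays themselves differed in ways other than the groups. Ring1, which encodes RING1A, read 402 and 578 in dKO, 419.8 and 245 in RA and 624 and 968 in control, and Rnf2, which encodes RING1B, read 2147 and 1887 in dKO, 1941 and 2085 in RA and 2042 and 2070.0 in control. These probe sets do not separate the genotypes, and whether they lie in the deleted parts is not known here, so they do not check the labels. Xist, the RNA of the inactive X chromosome, had signals of 12.9 and 29.5 in RA, against 3017 to 3688 elsewhere, and the Y-linked Eif2s3y had 2783 and 3064 in RA, against no more than 12.3 elsewhere. The BioB hybridisation control, RNA added from outside the sample, read 111 and 102 in RA, against 775 to 939 elsewhere. The part of these differences in the RA results was not tested. The proximal RA array correlated less with the others across genes, which are not independent replicates, at r = 0.927 to 0.951, against 0.954 to 0.986 among the other arrays. All 10 listed limb mesenchyme markers were above the floor on some arrays, 9 of them on every array. Fewer cells of a type and less RNA per cell cannot be told apart in these samples.

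Of the 37 Fox genes, 13 were above the floor on every array, 9 on some arrays and 15 on none. The proximal and distal dKO arrays each had 21 members above the floor, the RA arrays had 17 and 15, and the control arrays had 16 and 15. Over all 18193 genes these counts were 11376 and 11360 in dKO, 11134 and 10887 in RA and 11043 and 11144 in control. On at least 1 array 22 of the 37 members were above the floor, beside 12147 of the 18193 genes. The 15 members at the floor throughout were Foxa2, Foxa3, Foxb1, Foxb2, Foxd3, Foxd4, Foxe3, Foxf2, Foxi1, Foxj1, Foxl1, Foxn1, Foxn4, Foxq1 and Foxs1, which include regulators of endoderm, brain, neural crest, lens, thymus and ciliated cells. The 13 detected on every array were Foxc2, Foxj3, Foxk1, Foxk2, Foxm1, Foxn2, Foxn3, Foxo1, Foxo3, Foxo4, Foxp1, Foxp2 and Foxp4.

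Setting dKO against control shows which Fox transcripts differ when Ring1B is targeted in buds that already carry the Ring1A label. In the dKO bud 4 tissue regulators that were below the floor in control were above it in both parts: Foxd1, Foxf1, Foxl2 and Foxa1. Foxc2, Foxd2, Foxp1, Foxp2 and Foxc1, which were above the floor in at least the proximal control bud, were higher in both parts too. Proximally 5 of 21 measured members differed upward by 2-fold or more, distally 9 of 22, and no member was lower by that much. Among all genes measured, 4.07% were higher and 0.363% lower in the proximal part, and 5.32% higher and 0.524% lower in the distal part. Foxa1, Foxd1, Foxf1, Foxh1 and Foxl2 were measured through the dKO arrays alone, so they could only come out higher. As a description, the median log2 difference of the measured members was 0.43 proximally and 0.36 distally, beside 0.02 and 0.01 for all genes.

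Foxd1, a regulator of kidney stroma and retina, had signals of 158 proximally and 147 distally in dKO, against 20.3 and 12.9 in control. Foxf1, a Hedgehog-responsive factor of gut and lung mesenchyme, had 146 and 138 in dKO, against 11.05 and 1.60 in control. Foxl2, known from ovary, eyelid and pituitary, had 140.3 and 155 in dKO, against 24.1 and 19.0 in control. For these genes both dKO signals lay above every other array, and the proximal and distal values in dKO were close together. Foxa1, a pioneer factor of endoderm-derived organs, had 131 proximally and 257 distally in dKO, against 0.906 and 0.834 in control, and was the member of this group that differed between the dKO parts. On the RA arrays these 4 genes stayed at 3.11 to 21.5, below the floor. The bounds on the log2 difference from control were at least 1.30 and 1.30 for Foxd1, 1.19 and 1.21 for Foxf1, 1.13 and 1.38 for Foxl2 and 1.04 and 2.11 for Foxa1, proximal first. Foxh1, a partner of SMAD proteins in Nodal signalling, was the fifth member to pass the floor in both dKO parts. Its signals were 78.4 and 76.13, against floors of 73.0 and 76.11, and its bounds were only 0.29 and 0.36. The distal bound is in effect the difference between the floors of the 2 arrays.

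Of 20 Fox genes at the floor in both control arrays, 5 were above it in both dKO arrays, against 3.98% of the 6802 genes of the array at the floor in control. In RA this count was 0 of 20, against 1.28%. Of the same 20, 4 were 2-fold or more higher in both dKO parts, against 1.35%.

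Foxc2, Foxp1, Foxp2, Foxd2 and Foxc1 were above the floor in at least the proximal control bud. Of these, Foxc2, a regulator of paraxial mesoderm and lymphatic vessels, had 621 and 188.5 in dKO, against 207 and 93.7 in control (log2 1.59 and 1.01). Foxp1, a repressor with roles in motor neurons and heart, had 2432 and 2238 in dKO, against 1543 and 809 in control (0.66 and 1.47). Foxp2, known for its role in brain circuits, had 605 and 313.5 in dKO, against 382.5 and 103 in control (0.66 and 1.60). Each of these genes was higher in dKO in both parts, with the distal difference above the proximal one for Foxp1 and Foxp2 and below it for Foxc2. Foxd2, a mesenchymal factor, had 197 and 165 in dKO, against 110.2 and 41.9 in control (0.84 and at least 1.47). Foxc1, which acts with Foxc2 in somites, vessels and skull, had 218 and 123 in dKO, against 139.8 and 58.6 in control (0.64 and at least 1.05). The distal values of Foxc1 and Foxc2 were close to 2-fold and missed it with arrays scaled to their medians (0.69 and 0.65) or quantile normalized (0.73 and 0.75), and Foxc1 also as a mean over probe sets (0.45).

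**Figure D1:**
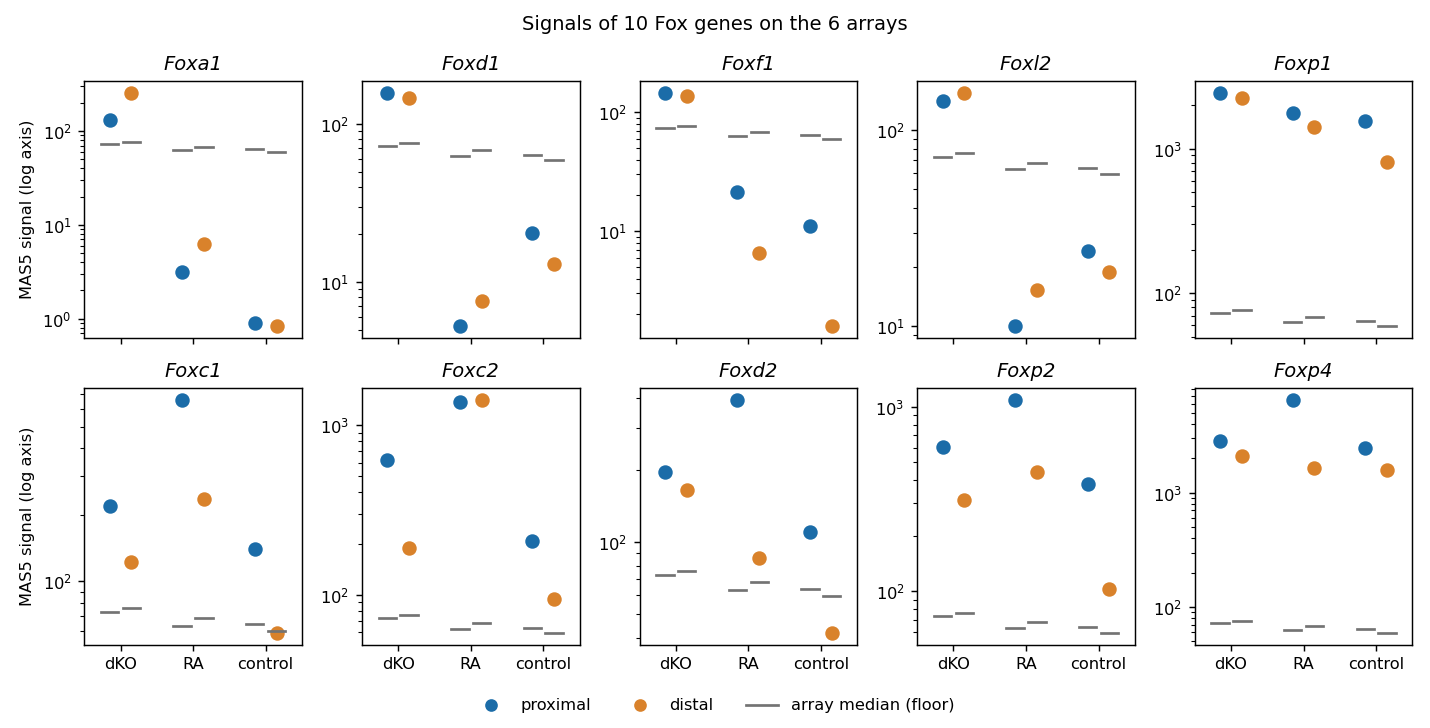
Signals of 10 Fox genes on the 6 arrays (vertical log axis, MAS5 signal), with dKO, RA and control from left to right, 1 point for each array and grey bars at the array medians used as floors. Foxa1, Foxd1, Foxf1 and Foxl2 are above the floor in dKO alone, whereas Foxc1, Foxc2, Foxd2 and Foxp2 are higher in both dKO and RA than in control, and Foxp4 stands out in the proximal RA bud.

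The widely expressed members differed little between dKO and control. Foxo1, Foxo3 and Foxo4 had log2 differences of 0.26, 0.48 and 0.03 proximally and of 0.08, 0.02 and 0.02 distally. Foxk1, Foxk2, Foxm1, Foxn2, Foxn3, Foxj2, Foxj3 and Foxp4 lay between -0.31 and 0.43 over both parts. Of the 12 members in this role group, 0 proximally and 1 distally (Foxp1) were 2-fold higher, with medians of 0.01 and 0.02. Several of these small differences turned negative after division by the array median, such as Foxo1 (-0.27), Foxo3 (-0.33) and Foxo4 (-0.33) distally. Of the 8 mesenchyme and mesoderm members on the array, 3 proximally and 5 distally were 2-fold higher, and Foxf2, Foxl1 and Foxs1 never passed the floor. Of the 3 endoderm members, 1 (Foxa1) was 2-fold higher in each part, of the 5 ectoderm, placode and gonad members 1 (Foxl2), and of the 6 neural members 0 proximally and 1 distally (Foxp2). The other members of these groups never passed the floor. The remaining group of 3, which holds Foxh1 and Foxp3, a factor of regulatory T cells, had 0 at 2-fold.

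All 12147 genes above the floor on some array were fitted in limma with additive terms for condition and limb part, which leaves 2 residual degrees of freedom. The test measures agreement between pairs of arrays and is no test over replicates. It gave an adjusted p of 0.0196 to Foxd1 (log2 1.30), 0.0217 to Foxl2 (1.26), 0.0242 to Foxf1 (1.20) and 0.0454 to Foxa1 (1.57). These were 4 of 22 Fox genes fitted, and 0 fell, beside 2.21% and 0.115% of all genes. The 4 genes entered the fit through the dKO arrays alone and their other 4 values are array floors, so these p-values are largely set by the filter and the floor and are not read as a test. Fitted without a floor, Foxa1 passed (adjusted p = 0.0355) and Foxf1 (0.0572), Foxl2 (0.0799) and Foxd1 (0.0806) did not. Foxp1 (log2 1.06, adjusted p = 0.0726), Foxp2 (1.13, 0.135), Foxc1 (0.84, 0.206), Foxc2 (1.30, 0.244) and Foxd2 (1.16, 0.351) did not pass. After quantile normalization none of the 4 passed (adjusted p = 0.0583 to 0.164). After division of each array by its median, all genes had a median difference of -0.17 proximally and -0.35 distally, and there were 2 members higher proximally (Foxc2 and Foxd1), 5 distally (Foxa1, Foxd2, Foxl2, Foxp1 and Foxp2) and 2 called in the fit (Foxd1 and Foxl2). Without both RA arrays, 9 members passed, with Foxc1, Foxc2, Foxd2, Foxp1 and Foxp2 added, beside 1236 of 12147 genes that rose. Without the proximal RA array alone the dKO estimates are the same, because the single RA array left does not enter them.

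**Figure D2:**
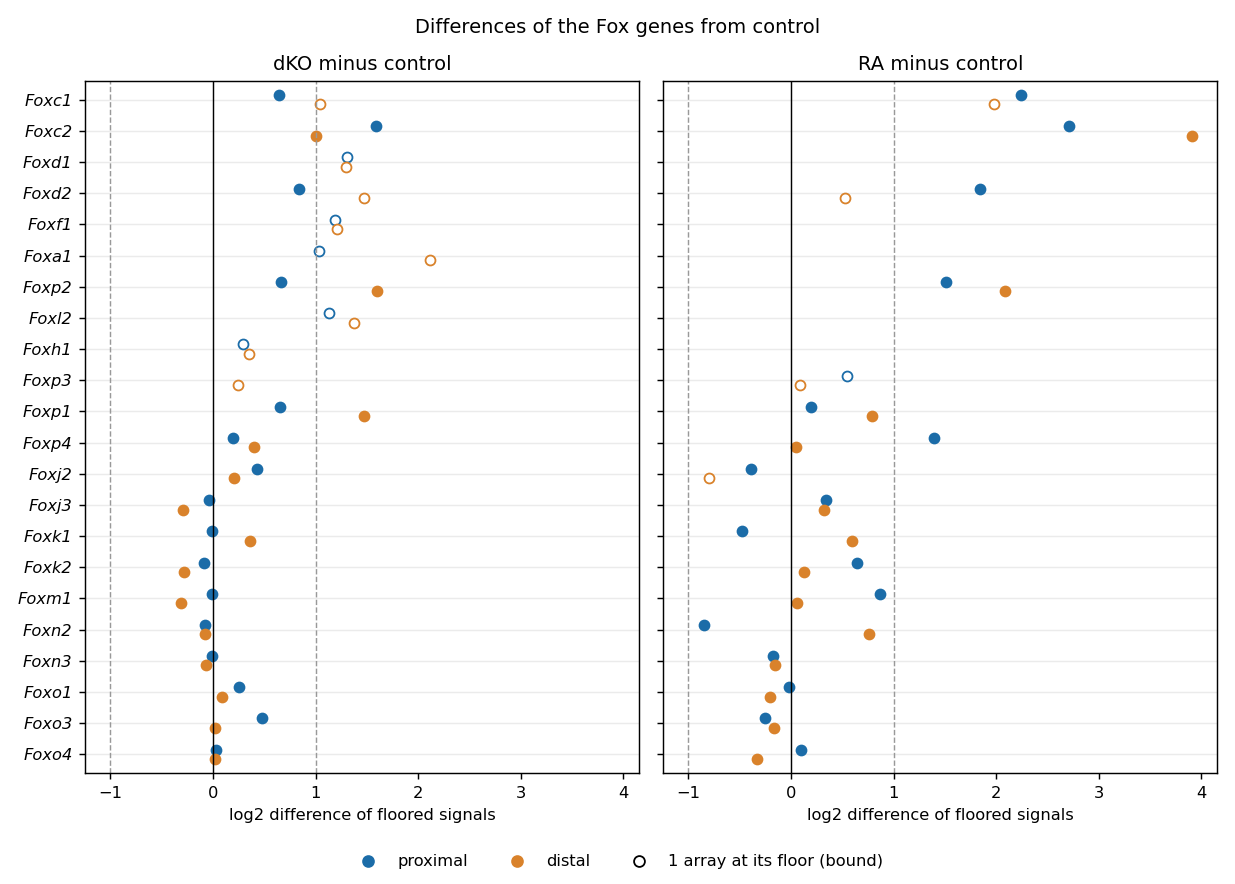
Log2 differences from control (horizontal axis) of the 22 Fox genes that passed the floor anywhere, in dKO on the left and RA on the right, with proximal and distal points, open where 1 of the arrays was at its floor, and dashed lines at 2-fold. In dKO 9 genes reach 2-fold distally and 5 proximally, and in RA 3 distally and 5 proximally, none of them downward.

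The comparison of RA with control asks which Fox transcripts differ after RA exposure, with the Ring1A label differing too. Foxc2 had the largest difference among members in both parts, Foxc1 and Foxp2 were 2-fold or more higher in both parts, and Foxd2 and Foxp4 were 2-fold or more higher proximally. As means over probe sets the distal differences of Foxc1 and Foxp2 were 0.95 and 0.36, so that Foxc2 and, newly, Foxn2 were the members past 2-fold there. There were 17 measured members in each part, of which 5 were 2-fold or more higher proximally, 3 distally and 0 lower. Among all genes measured, 3.69% were higher and 6.8% lower in the proximal part, and 2.16% higher and 2.13% lower in the distal part. The median of the members was 0.34 proximally and 0.13 distally, beside 0.01 and -0.04 for all genes.

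Foxc2 had signals of 1358 proximally and 1412 distally in RA, against 207 and 93.7 in control (log2 2.71 and 3.91). The RA values of Foxc2 were alike in the 2 parts and were the highest of the 6 arrays. Foxc1 had 662 and 235 in RA, against 139.8 and 58.6 in control (2.24 and at least 1.98), with the higher signal proximally. Foxp2 had 1092 and 440.3 in RA, against 382.5 and 103 in control (1.51 and 2.09). Foxd2 had 394.5 and 86.0 in RA, against 110.2 and 41.9 in control (1.84 and at least 0.53), and without the floor it was past 2-fold in the distal part too. Foxp4, a FOXP family repressor expressed in lung and gut, had 6520.3 proximally and 1645 distally in RA, against 2478 and 1595 in control (1.40 and 0.04). The proximal RA signal of Foxp4 was far above its other 5 signals, which spanned 1595 to 2836.

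Other members differed less. Foxm1 had 1633 and 1099 in RA, against 895 and 1052 in control (0.87 and 0.06), and Foxk2 had 6129 and 4398 in RA, against 3919 and 4027 in control (0.65 and 0.13). Foxj2 had 98.7 and 66.1 in RA, against 129 and 119 in control (-0.39 and at most -0.80). Foxo1, Foxo3 and Foxn3 lay between -0.26 and -0.02 over both parts, and Foxp1 was 0.20 and 0.79. Foxo4, which is X-linked, had 4081 and 3417 in RA, against 3813 and 4288 in control (0.10 and -0.33). Of the role groups, the mesenchyme group had 3 of 8 members 2-fold higher proximally and 2 of 8 distally, the neural group 1 of 6 in each part (Foxp2) and the widely expressed group 1 of 12 and 0 of 12 (medians 0.04 and 0.05). The endoderm and ectoderm groups had no measured member in RA or control.

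In limma Foxc1 rose in RA (log2 2.11, SE 0.25, adjusted p = 0.0321), as did Foxc2 (3.31, SE 0.42, adjusted p = 0.0352). These were 2 of 22, with 0 lower, beside 0.305% and 0.239% of all genes. Foxp2 (1.80, adjusted p = 0.0672), Foxd2 (1.19, 0.269), Foxp4 (0.72, 0.354) and Foxj2 (-0.59, 0.255) did not pass. After division by the array median both calls were lost (adjusted p = 0.0551 each), as after quantile normalization (0.101 for Foxc1 and 0.110 for Foxc2), while the fitted log2 effects stayed at 2.03 to 3.26. Without the proximal RA array, the distal RA array is set against a distal control value fitted from the control and dKO arrays. The effects were then 1.88 for Foxc1 and 4.06 for Foxc2. Without the dKO pair Foxc1, Foxc2, Foxd2 and Foxp2 passed, beside 227 of 12147 genes that rose. In that fit the p-values rest on the variance pooled over genes alone.

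Foxc2 had proximal and distal signals of 621 and 188.5 in dKO, of 1358 and 1412 in RA and of 207 and 93.7 in control. The comparisons of dKO and of RA share the control arrays.

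The pairs of arrays also answer which Fox genes separate the proximal from the distal bud. In control 3 of 17 measured members reached 2-fold with the higher signal proximally, and 0 with the lower, beside 1.35% and 1.4% of all genes, with a median of 0.12 for the members. Foxp2 had 382.5 proximally and 103 distally in control (log2 1.89), Foxc1 139.8 and 58.6 (at least 1.23) and Foxc2 207 and 93.7 (1.14). Foxp1 was just short of 2-fold, with 1543 and 809 (0.93), and Foxd2 differed by at least 0.89.

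In dKO 1 of 21 was higher proximally, Foxc2, with 621 proximally and 188.5 distally (1.72), and 0 were lower, beside 0.515% and 0.722%. Foxp2 and Foxc1 differed by 0.95 and 0.83 in dKO, and Foxp1 by 0.12, with 2432 proximally and 2238 distally. The small Foxp1 difference depends on the probe set, as its other measured probe sets gave 1.55, 0.85, 0.77 and 0.05 in dKO. Foxa1 ran the other way (-0.97). In RA 4 of 17 were higher proximally and 1 lower, beside 4.4% and 6.16%. These were Foxd2 (2.20), Foxp4 (1.99), Foxc1, with 662 proximally and 235 distally, and Foxp2 (1.31), and Foxn2 was lower, with 293 proximally and 789.5 distally (-1.43). Foxc2 differed little by part in RA (-0.056).

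Foxc1, Foxp2 and Foxp4 had the higher signal in the proximal part under every condition, as did Foxd2, Foxp1, Foxj2, Foxj3 and Foxn3. For Foxj3 and Foxn3 the control differences were only 0.01 and 0.09, and they changed sign after division by the array median. Another Foxn3 probe set was lower proximally in RA (-0.65). No Fox gene passed the position term of the limma fit. Foxp2 (log2 1.38, SE 0.24, adjusted p = 0.143) and Foxc1 (1.19, SE 0.21, adjusted p = 0.146) had the smallest p-values among members. In that term limma called 0 of 12147 genes (0%) at the adjusted threshold and 1156 at an unadjusted p under 0.05, of which 6 were Fox genes, all higher proximally. In fits with 1 residual degree of freedom, Foxc1, Foxc2, Foxp2 and Foxp4 were called proximally higher without the RA pair. Foxc1, Foxd2, Foxp2 and Foxp4 were called without the dKO pair, and Foxp4 without the control pair. Over all genes 205, 175 and 124 were called higher in these fits, in that order. Leaving out the proximal RA array alone gives the same position estimates as leaving out the RA pair.

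**Figure D3:**
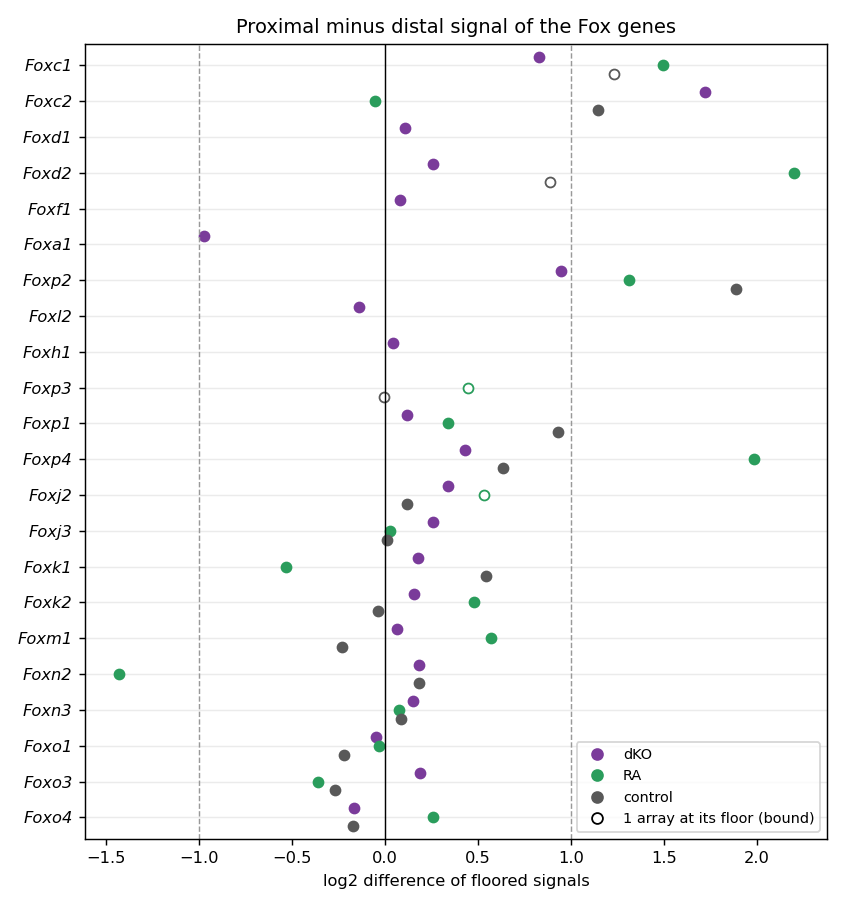
Proximal minus distal log2 difference (horizontal axis) of the 22 Fox genes that passed the floor anywhere, with a point each for dKO, RA and control, open where 1 array was at its floor, and dashed lines at 2-fold. Foxc1, Foxd2, Foxp1, Foxp2 and Foxp4 lie right of 0 in every condition, Foxc2 lies near 0 in RA, and Foxn2 lies beyond 2-fold to the left in RA.

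Several members have more than 1 probe set, which gives a check within the same arrays but no replicate. The second Foxf1 probe set was at the floor on every array, with 10.9 and 15.5 in dKO, against 10.7 and 20.5 in control, as was the second Foxl2 probe set, with 23.4 and 19.0 in dKO, against 11.4 and 12.2 in control. The second Foxd2 probe set was at the floor on every array too, with 1.45 and 1.22 in dKO, 2.46 and 1.21 in RA and 1.78 and 0.742 in control. As means over probe sets Foxf1, Foxl2 and Foxd2 did not pass the floor, so their 2-fold differences rest on 1 probe set each. Foxa1 and Foxd1 have 1 probe set each. The 5 probe sets of Foxp1 measured in dKO and control were all higher in dKO, with log2 differences of 1.04 to 1.47 distally and of at least 0.66 proximally. For Foxp2, the second bright probe set gave 0.44 and 1.35 in dKO and 0.82 and 1.08 in RA, against 0.66 and 1.60 and 1.51 and 2.09 for the probe set that stands for the gene. Both Foxp4 probe sets were higher in the proximal RA bud (1.40 and 1.55) and not in the distal one (0.04 for each). The second Foxc1 probe set passed the floor on the proximal RA array alone, with 104 there. Foxj3 had probe sets that differed. The probe set that stands for the gene had 2672 and 2620.0 in RA, against 2109 and 2095 in control (0.34 and 0.32), and the other had 950.3 and 661 in RA, against 211 and 187 in control (2.17 and 1.82). Foxk2 and Foxm1 probe sets differed in sign in the proximal RA bud, with a range of -1.05 to 0.65 for Foxk2 and of -0.66 to 0.87 for Foxm1, and the second Foxn2 probe set was also higher in the distal RA bud (at least 1.56). Other Foxn3 probe sets gave -0.92 and -0.07 in the proximal RA bud, against -0.17 for the one that stands for the gene. Other Foxo1 probe sets gave 0.81 and 0.16 there, against -0.02.

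**Figure D4:**
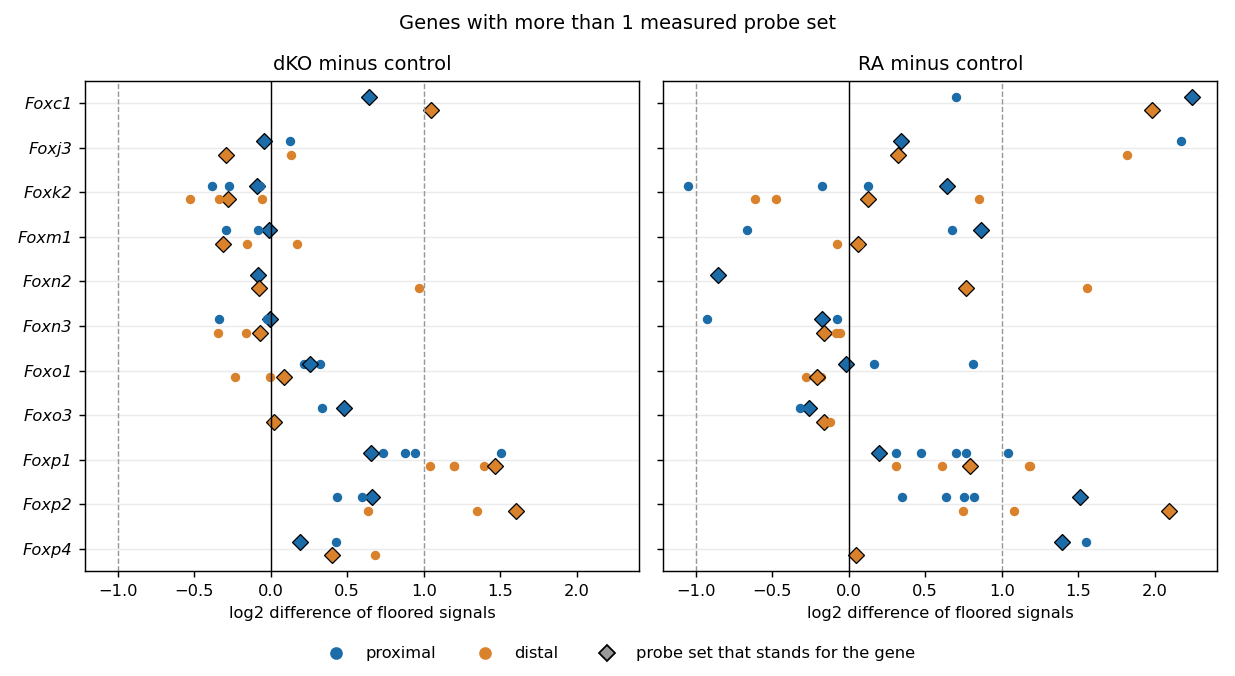
Log2 differences from control (horizontal axis) of every measured probe set of the 11 Fox genes with more than 1 such probe set, in dKO on the left and RA on the right, with diamonds for the probe set that stands for the gene. Foxp1 and Foxp2 probe sets lie right of 0 throughout, whereas those of Foxj3, Foxk2, Foxm1, Foxn3 and Foxo1 spread apart in RA.

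The genes next to the Fox loci were read in the same way. Foxf1, Foxc2 and Foxl1 lie together on chromosome 8 in the RefSeq order, with Mthfsd between Foxf1 and Foxc2. Of this cluster Foxf1 passed the floor in dKO alone, Foxc2 was higher in dKO and RA, and Foxl1 was at the floor on every array. Mthfsd had 645 and 531 in dKO, 554 and 403 in RA and 478 and 449 in control. Foxq1, Foxf2 and Foxc1 form a second cluster on chromosome 13, of which Foxc1 alone passed the floor. Its flanking genes Exoc2 and Gmds stayed within 2-fold of control in both conditions. Foxd2 lies next to Foxe3 and Trabd2b on chromosome 4. Trabd2b, which encodes a metalloprotease that acts on WNT proteins, rose in dKO, with 187 and 221 in dKO, against 54.0 and 47.8 in control (limma log2 1.72, adjusted p = 0.0181). Kifc2, the array gene next to Foxh1, also rose (1.31, adjusted p = 0.0475), with 165 and 191 in dKO, against 86.3 and 55.4 in control. Its proximal difference was under 2-fold (0.93). Pgm5, next to Foxd4, was 2-fold or more higher in both dKO parts (1.87 and 1.26), though limma did not call it. Foxd4 itself was at the floor on every array. Of all 65 neighbours on the array, the proximal dKO bud had 2 of 45 measured at 2-fold higher and 1 lower, and the distal dKO bud 4 of 45 higher and 0 lower (medians 0.12 and 0.02), beside 4.07% and 5.32% of all genes higher. In RA these counts were 2 higher and 2 lower of 45, and 1 and 0 of 43, beside 3.69% and 6.8%, and 2.16% and 2.13%. In limma 2 of 48 neighbours rose in dKO, beside 2.21% of all genes, and 0 in RA. Both were at the floor in the distal control bud, and Trabd2b in the proximal one too, where the floor sets part of the fit.

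Promoter windows were found for 24 of the 37 members, and 5 of these windows, among them that of Foxa1, lie inside the gene's own RefSeq model, before an inner start. Of the members at the floor in control and 2-fold higher in both dKO parts, Foxl2 had 22 CpG dinucleotides in the 250 bases, Foxa1 21 and Foxd1 12. The 10 members at the floor on all arrays had a median of 9.5 and a range of 4 to 21, and the 7 detected on every array had a median of 27. Over all genes on the array, the 68 at the floor in control and 2-fold higher in both dKO parts had a median of 14, the 4621 at the floor throughout had 4 and the 8334 detected on every array had 17. The forkhead core TGTTTAC, searched on both strands, was in 1 of the 24 windows (Foxa1) and in 2.49% of 14452 promoters. The MEIS core TGACAG was in 5 windows, Foxd1 among them, and in 14.7% of promoters, the nuclear receptor half-site AGGTCA in 2 (12.2%) and the TATA box TATAAA in 2 (9.02%). TGACAG and the reverse complement of AGGTCA share their first 4 letters. A match is a description of the letters.

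**Figure D5:**
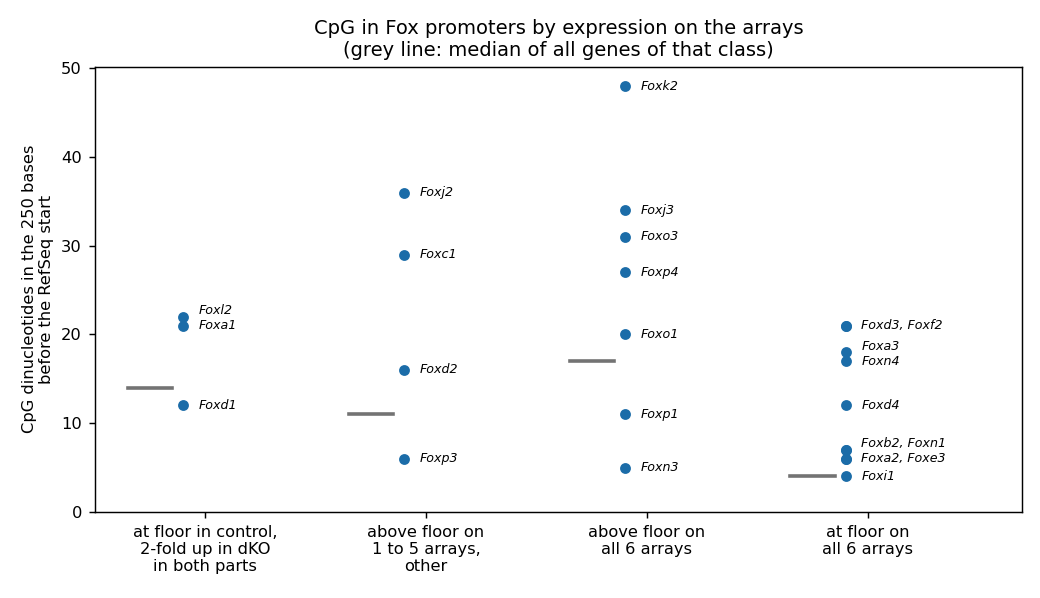
CpG dinucleotides in the 250 bases before a RefSeq start (vertical axis) for the 24 Fox genes with a window, grouped by their behaviour on the arrays, with grey lines at the median of all genes of the same group. Foxl2 and Foxa1 have 22 and 21, and the members at the floor throughout range from 4 to 21.

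Lists of genes that act around Fox factors gave the setting. Beside their counts stand the shares of all genes at 2-fold, which were 4.07% higher and 0.363% lower in the proximal and 5.32% and 0.524% in the distal dKO bud, and 3.69% and 6.8% in the proximal and 2.16% and 2.13% in the distal RA bud. Of Hedgehog pathway genes, which lie upstream of mesenchymal Fox genes such as Foxf1, the proximal dKO bud had 0 of 10 measured at 2-fold higher and 1 lower, and the distal dKO bud 1 higher and 2 lower. The pathway's target and effector Gli1 had 114 and 172 in dKO, against 236 and 568.5 in control. In RA 0 of 11 were higher and 1 lower proximally, and 1 and 1 distally. Shh, the ligand of the distal posterior bud, had 72.8 and 57.6 in dKO, 64.0 and 432.5 in RA and 130.1 and 1099 in control. Its log2 differences from control were at most -0.83 and -3.85 in dKO, where both signals lay under the floor, and -1.02 and -1.34 in RA. Limma called 0 in either condition. Of the genes of the PI3K and AKT pathway that control FOXO proteins, 1 of 15 was higher proximally and 0 distally in dKO, and 0 of 16 and 0 of 15 in RA. FOXO target genes had 0 of 14 higher in dKO, with 1 lower distally, and in RA 1 of 14 higher in each part (Bcl6, 1.44 and 2.91) with 4 and 3 lower. FOXM1 target genes of mitosis had 0 of 15 at 2-fold in dKO and 1 of 15 lower in each part in RA, Nek2, a mitotic kinase (-2.46 and -1.04). Limma called 0 of the PI3K, FOXO and FOXM1 list members in either condition. Of FOXC partner and mesenchyme genes, the proximal dKO bud had 3 of 12 higher and 3 lower, and the distal dKO bud had 5 of 13 higher and 1 lower. The RA counts were 2 and 2 of 11 proximally, and 0 and 3 of 9 distally. In limma Pax9 (log2 2.16, adjusted p = 0.00625) and Tbx1 (1.41, adjusted p = 0.0453) rose and Meox2 (-1.38, adjusted p = 0.0449) fell in dKO, and Meox2 fell in RA (-1.79, adjusted p = 0.0448). Pax9 and Tbx1 were above the floor in dKO alone, so that the filter and the floor set much of their p-values.

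Markers of other cell types also differed between the arrays. Somite and body wall markers, from a tissue that expresses Foxc1 and Foxc2, had a summed signal of 6137 proximally and 1519.6 distally in RA, against 4425 and 2539.96 in control, with 3 of 5 higher and 2 lower in the proximal bud and 0 of 4 higher and 2 lower in the distal one. Nkx3-2 and Uncx of that list were at the floor on every array. In the proximal dKO bud 1 of 6 of these markers was higher and 3 were lower, and in the distal dKO bud 1 was higher and 1 lower. Mesothelium markers had 2 of 3 higher in each part in dKO and 1 of 2 and 1 of 3 in RA, with sums of 1230.3 and 1352 in dKO, 1311 and 609.9 in RA and 667 and 659 in control, and with Msln and Lrrn4 at the floor throughout. Endothelium markers had sums of 5122 and 3591 in dKO, 5003 and 3132 in RA and 3535 and 2548 in control, with 0 and 1 of 10 at 2-fold in each condition. Muscle precursor markers had 1 of 5 and 3 of 4 higher in dKO, and in RA 0 of 4 and 1 of 4 higher with 0 and 1 lower. Their sums were 5686 and 2464 in dKO, 4094 and 855 in RA and 3999.7 and 1243 in control, with Myod1 at the floor throughout. Neural and Schwann markers had 1 of 3 higher in each part in dKO (Nefl) and 1 lower distally in RA, with sums of 1025 and 1087 in dKO, 251 and 377 in RA and 460.1 and 506 in control, and with Sox10 and Elavl3 at the floor throughout. Surface ectoderm markers had 0 of 12 at 2-fold in dKO and 1 and 2 lower in RA, erythroid markers 1 of 6 higher distally in dKO and 0 in RA, macrophage markers 0 of 3 in dKO and 1 of 3 and 1 of 5 higher in RA, and limb mesenchyme markers 0 and 2 of 10 higher in dKO, with 1 lower proximally and 1 higher distally in RA. The part of these cell types in the Fox differences was not tested.

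Other families of transcription factors were counted by the same rule, beside 4.07% and 5.32% of all genes higher in the proximal and distal dKO bud and 3.69% and 2.16% in RA. In dKO Sox genes had 1 of 13 higher proximally and 3 of 12 distally, with medians of 0.33 and 0.63. Pax genes had 3 of 5 and 4 of 5 higher in dKO (medians 1.82 and 1.83), with 1 lower proximally, and Tbx genes 1 of 7 in each part, with 2 lower proximally (medians 0.21 and 0.05). In RA the Fox counts of 5 of 17 and 3 of 17 stood beside 0 of 12 and 1 of 12 for Sox genes (2 and 1 lower), 1 of 6 in each part for Tbx genes (1 lower in each) and 1 of 2 in each part for Pax genes. The difference between families was not tested.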

How the data were processed

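Each of the 6 samples was measured on a 1-colour Affymetrix array. The deposited values are signal intensity from MAS5, per the submitters' processing notes, on a linear scale. A trimmed mean (2% off each end) is 500 on every array. No MAS5 version was stated in these notes. There are 45101 probe sets: 34958 have 1 gene symbol, 932 several and 9211 none. Array controls were left out, which left 18193 genes.

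A gene entered a comparison when at least 1 of its arrays was above the floor, the array median (50th percentile), and was counted at 2-fold or more (log2 of 1). The additive fit used limma 3.58.1 with a trended prior, Benjamini-Hochberg adjustment over all 12147 genes and an adjusted p threshold of 0.05. The variance pooled over genes enters with 4.64 degrees of freedom, so the p-values rest mostly on it. It enters with 12.7 without the RA pair and 37.0 without the control pair. Without the dKO pair or without the filter, the p-values rest on it alone. Both computations were run on simulated data to which no floor was applied, so these runs do not check calls that rest on the floor. The alternatives were division by the array median, quantile normalization, no floor, the mean over probe sets, no filter and fits without a pair of arrays or, chosen after the data were seen, without the proximal RA array. Members, lists and tests were chosen with earlier results of these data known. Members are named where they were 2-fold apart in a comparison, passed the fit, were among the brightest 8 or never passed the floor; Foxc2 was always named. Others were added after their values were seen. Promoter letters are from RefSeq (GRCm38.p6), matched by symbol. The arrays' number limits the precision. The p-values rest on departures of these arrays from additive effects of condition and part and on the variance pooled over genes. They do not measure a spread between replicates.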

Additional observations from a re-analysis of the deposited data

Results flagged for a closer look

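Foxn2, Foxk1 and Foxc2 had effects of opposite sign and at least 2-fold apart in different parts or conditions, and with 1 array per group these differences were not tested. In RA minus control, Foxn2 was -0.85 proximally and 0.76 distally (log2), and Foxk1, a factor of muscle progenitors and metabolism, was -0.48 and 0.60. In proximal minus distal, Foxn2 was 0.18 in dKO, -1.43 in RA and 0.18 in control, Foxk1 was -0.53 in RA and 0.55 in control, and Foxc2 was 1.72 in dKO, -0.056 in RA and 1.14 in control. The RA value of Foxc2 (-0.056) was small and changed sign after division by the array median. Each contrast of opposite sign involves an RA array.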

How the results depend on the processing

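No paired analysis was possible because each group has 1 array and the labels give no replicate numbers, apart from the pairing of arrays by condition and limb part that the additive fit itself uses. Proximally in dKO, the 5 higher Fox genes became 2 after division by the array median, 3 after quantile normalization and 3 as means over probe sets, and the 9 distal ones became 5, 6 and 4. As means over probe sets 1 gene was higher proximally in control, and 2 were in dKO after either scaling. In limma the 4 Fox genes called higher in dKO became 2 after division by the median and as means over probe sets, 1 without a floor, 0 after quantile normalization, 9 without the RA pair, 9 without the proximal RA array and 25 without the filter. The 2 that rose in RA became 0 after either scaling, 1 as means over probe sets, 5 without the filter, 4 without the dKO pair and 4 without the proximal RA array. For the position term 0 became 5 without the filter, 1 without the control pair, 4 without the dKO pair, 4 without the RA pair and 4 without the proximal RA array. Over all genes, limma's 269 that rose in dKO became 103 after division by the median, 80 after quantile normalization, 78 without a floor, 1236 without the RA pair, 1225 without the proximal RA array and 7544 without the filter, and the 37 that rose in RA became 20 after division by the median, 13 after quantile normalization, 227 without the dKO pair, 468 without the proximal RA array and 536 without the filter. For the position term the calls over all genes were 205 higher and 226 lower without the RA pair, 175 and 179 without the dKO pair, 124 and 170 without the control pair and 324 and 444 without the filter. The unfiltered fit includes genes whose values are only the array floors, and fits without arrays have 1 residual degree of freedom. The fit without the proximal RA array gives the dKO and position estimates of the fit without the RA pair, so these are not separate checks. Of the 2-fold differences and called effects of single genes, 117 values kept their call, 14 lost it, 25 moved across 2-fold or by over 1.5 times and none changed sign, and 8 differences had no value as means over probe sets. Smaller differences did change sign: of 132 values of members, 16 after division by the median and 7 after quantile normalization (of at most 0.24 in size), 1 without a floor, and 21 of 104 as means over probe sets (up to 0.87, Foxm1 in the proximal RA bud). Signals near the floor, as for Foxh1, limit what can be read.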
